A study of Mus musculus with 14 samples.

Results

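The 7 catenin genes Ctnna1, Ctnna2, Ctnna3, Ctnnb1, Ctnnd1, Ctnnd2 and Jup were examined for peaks of BMI1 and of H2AK119ub, among 21887 protein-coding genes of the mouse. They were chosen by name, and each peak was assigned to a gene when it touched the gene body or the 5 kb on either side of it. Of 39832 peaks in 12 lists, 84 lay in these windows, 83 of them in the 6 homeostasis lists and 1 in the 6 Damage lists. Because peak numbers of these lists were known when Ctnna3 and Ctnna2 were included, the numbers are descriptions and the family was not tested as a group.

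The lists came from chromatin immunoprecipitation and sequencing (ChIP-seq) of cardiac cells of C57BL/6 mice 6 to 8 weeks old, enriched magnetically for the Sca1+CD45- population. BMI1 belongs to the Polycomb repressive complex PRC1, and H2AK119ub is the ubiquitin mark that PRC1 places on histone H2A. The labels describe a culture medium for these cells without saying whether the cells used here had been cultured. Damage mice had received 1 dose of 20 mg/kg of the superoxide-generating herbicide paraquat in PBS by intraperitoneal injection, and Homeostasis mice PBS alone. Each antibody and treatment had 3 libraries, and nothing in the labels says whether these came from separate mice. P-values thus refer to the spread between libraries, and that spread may be technical. The cells were enriched by sorting and not purified to 1 cell type, and peak lists hold neither expression nor read depth, so neither the identity of the cells nor the activity of a catenin gene could be checked against marker genes.

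Catenins tie cadherins, the adhesion receptors of adherens junctions, to the actin cytoskeleton. Beta-catenin and plakoglobin bind the cadherin tail, alpha-catenins connect them to actin, and the p120 subfamily binds the cadherin next to the membrane and controls its turnover. In heart muscle these proteins are concentrated in the intercalated disc, where adherens junctions and desmosomes mix. Beta-catenin is in addition the transcriptional effector of Wnt signalling.

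Most peaks of the family were in 2 alpha-catenin genes. Ctnna3, which encodes alphaT-catenin, an alpha-catenin found in heart and testis, held 40 of the 83 homeostasis peaks. Ctnna2, which encodes alphaN-catenin of the nervous system, held 32. Ctnna1, which encodes the widely expressed alphaE-catenin, held 5, Ctnnd2, which encodes the neural delta-catenin, held 5, and Jup, which encodes plakoglobin, held 1. Ctnnb1, which encodes beta-catenin, and Ctnnd1, which encodes p120-catenin, were without a peak in all 12 lists. In these bulk samples a site bound in fewer cells and a weaker signal per cell cannot be told apart. The genes differ widely in length, from 27.1 kb for Ctnnb1 to 1574 kb for Ctnna3, so each number was set against the number expected for the length. That expectation is the library's peaks on the same chromosome, spread evenly over it.

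Homeostasis peaks of Ctnna3 and Ctnna2 lay over 5 kb from the starts of these genes, apart from 1 region beside Ctnna3, and no start was at hand for Ctnna1. The start windows from 250 bases before to 50 bases after a start, taken from RefSeq (GRCm38.p6), are printed for Ctnna3 and Ctnna2, which carry the most peaks. The window of Lrrtm1, a synaptic adhesion gene nested in Ctnna2, is added because a region in Lrrtm1 recurred in every homeostasis list. All are 5′ to 3′ on the gene's strand, with CG dinucleotides in capitals, since Polycomb complexes are known to bind CpG islands at gene starts.
Ctnna3, chr10:63429848-63430147, plus strand: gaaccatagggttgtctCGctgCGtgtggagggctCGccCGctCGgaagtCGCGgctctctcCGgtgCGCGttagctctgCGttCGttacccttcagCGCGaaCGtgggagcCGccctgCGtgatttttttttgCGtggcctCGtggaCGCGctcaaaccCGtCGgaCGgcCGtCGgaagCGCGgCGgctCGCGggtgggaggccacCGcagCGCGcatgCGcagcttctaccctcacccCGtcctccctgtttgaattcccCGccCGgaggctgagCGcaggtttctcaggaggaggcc
Ctnna2, chr6:77979618-77979917, minus strand: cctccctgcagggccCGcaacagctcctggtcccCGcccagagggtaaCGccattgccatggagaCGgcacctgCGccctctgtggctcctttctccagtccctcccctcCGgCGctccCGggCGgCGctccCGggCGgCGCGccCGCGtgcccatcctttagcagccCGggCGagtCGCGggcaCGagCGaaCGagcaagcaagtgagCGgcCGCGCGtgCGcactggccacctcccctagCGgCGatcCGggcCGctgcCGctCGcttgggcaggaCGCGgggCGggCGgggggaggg
Lrrtm1, chr6:77242227-77242526, plus strand: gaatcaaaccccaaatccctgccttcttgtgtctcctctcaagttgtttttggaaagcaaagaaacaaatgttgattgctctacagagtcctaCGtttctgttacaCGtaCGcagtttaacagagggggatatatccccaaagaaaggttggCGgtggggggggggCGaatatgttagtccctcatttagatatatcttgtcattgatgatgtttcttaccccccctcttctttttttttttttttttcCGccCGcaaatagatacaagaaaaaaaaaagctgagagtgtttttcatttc
The Ctnna3 window holds 39 CG dinucleotides, the Ctnna2 window 38 and the Lrrtm1 window 7, against a median of 7 over 32851 start windows of the same length. Of all windows, 4.45% hold as many CGs as the printed Ctnna3 window or more, and 4.95% as many as that of Ctnna2. Ctnna3 has 2 further annotated starts, which hold 7 and 2 CGs, so its first start alone is CpG-rich. No homeostasis peak overlapped any of the 3. The nearest homeostasis region was 0.528 kb from the first Ctnna3 start, 19.992 kb from the Ctnna2 start and 3.626 kb from the Lrrtm1 start. That Lrrtm1 start, at chr6:77242477, lies inside the gene as bounded here (chr6:77229210-77259915) and not at its 5′ boundary. The table of starts matched 6 of the 7 catenin genes with 10 windows in all, and 0 of the 10 overlapped a homeostasis peak. Over all 32851 windows 28 did (0.0852%), where even placement over each chromosome gives 86.3. With so few windows, a count of 0 does not set catenin starts apart.

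Ctnna3 (chr10:63430098-65003667, gene identifier 216033) held 4, 8 and 5 BMI1 peaks in homeostasis replicates 1, 2 and 3, and 2, 14 and 7 H2AK119ub peaks. Every homeostasis library thus had a peak, with the fewest in the shortest list, H2AK119ub replicate 1, and the most in the longest, H2AK119ub replicate 2. The mean was 5.67 ± 2.08 (SD, n = 3) for BMI1 and 7.67 ± 6.03 for H2AK119ub. The BMI1 peaks were 1.69 times the number expected for the length, with per-library ratios from 1.29 to 1.94. The H2AK119ub peaks were 1.65 times the expected number, with ratios from 1.50 to 1.75. All 6 ratios lay above 1, in 2 of the libraries through 1 peak on a tRNA gene outside the gene body. Without that peak the ratio was 0.970 in BMI1 replicate 1, 0.752 in H2AK119ub replicate 1 and 1.30 to 1.63 in the other 4. Without H2AK119ub replicate 2 the mean H2AK119ub number was 4.5 and the H2AK119ub ratio ranged from 1.51 to 1.72 with any 1 of the 3 libraries left out.

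Ctnna2 (chr6:76881637-77979815, gene identifier 12386) held 6, 5 and 4 BMI1 peaks in the 3 homeostasis replicates and 1, 12 and 4 H2AK119ub peaks. The BMI1 libraries were close to each other (5.0 ± 1.0, SD, n = 3), while the H2AK119ub libraries spread with the length of their lists (5.67 ± 5.69). The BMI1 number was 1.87 times the expected number, with ratios from 1.32 to 2.58. The H2AK119ub number was 1.58 times the expected number, with ratios from 1.04 to 1.98. In H2AK119ub replicates 1 and 3 the ratios were 1.04 and 1.08, so the count there was close to what length alone gives, and without replicate 2 the mean was 2.5 peaks and the ratio 1.07.

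Ctnnd2 (chr15:30172534-31029344, gene identifier 18163) follows them in length at 857 kb and had few peaks. BMI1 replicates 1 to 3 held 0, 1 and 0 peaks and H2AK119ub replicates 0, 2 and 2. Over the 6 lists 11.9 peaks were expected and 5 were found. The ratio was 0.203 for BMI1 (per library 0 to 0.442) and 0.576 for H2AK119ub (0 to 0.915), below 1 in each of the 6 lists. In H2AK119ub replicate 1 only 0.58 peaks were expected, and replicate 3 held 2 against 2.19 expected. The counts in these lists were thus close to what length alone gives. The long neural delta-catenin gene and the long alpha-catenin genes thus stood on opposite sides of the expectation, as the plot of peaks by library shows.

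**Figure D1:**
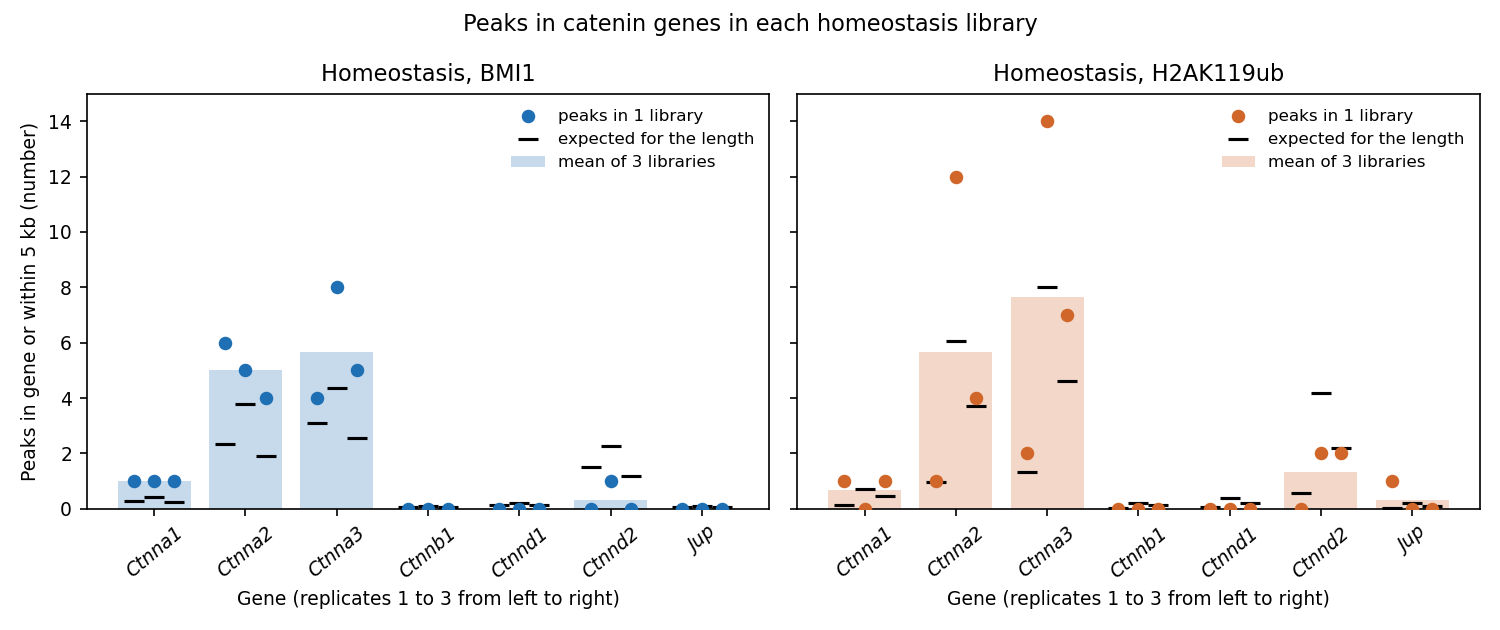
Number of peaks in each catenin gene or within 5 kb of it, for the 3 BMI1 (left) and 3 H2AK119ub (right) homeostasis libraries. Points are libraries, bars are means of 3 libraries, and black dashes are the numbers expected for the gene's length in each library. Points of Ctnna3 and Ctnna2 lie above their dashes in every library, for Ctnna3 in BMI1 replicate 1 and H2AK119ub replicate 1 only with the tRNA gene's peak counted, and those of Ctnnd2 lie below.

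Ctnna1 (chr18:35118902-35254776, gene identifier 12385) had 1 peak in each BMI1 replicate and 1, 0 and 1 in the H2AK119ub replicates. The 5 peaks, each 101 bp wide, overlapped in 1 region of 113 bp at chr18:35248663-35248775, 6.06 kb inside the gene's higher boundary. The list without it, H2AK119ub replicate 2, was the longest of the 6. Over the 6 lists 2.28 peaks were expected in Ctnna1. The BMI1 ratio of 3.07 and the H2AK119ub ratio of 1.54 rest on that region alone, and the H2AK119ub ratio lay between 0.849 and 3.51 with 1 of the 3 libraries left out, lowest without replicate 1 and highest without replicate 2.

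Jup (chr11:100368856-100397839, gene identifier 16480), whose product serves both desmosomes and adherens junctions, had a single 101 bp peak, in H2AK119ub replicate 1 (chr11:100372190-100372290). It was found in no other list, so without that library the gene had 0 peaks. Ctnnb1 (chr9:120933400-120960507, gene identifier 12387) and Ctnnd1 (chr2:84587096-84658977, gene identifier 12388) had none, and 0.595 and 1.16 peaks were expected over the 6 homeostasis lists. A count of 0 does not set them apart from genes of their length: 84.4% of genes in the length class of Ctnnb1 and Jup and 65.5% in that of Ctnnd1 had no homeostasis peak. The nearest homeostasis region outside the window was 169 kb from Ctnnb1 and 111 kb from Ctnnd1. At the 5 kb limit itself, the sole peak region between gene body and limit was the one beside Ctnna3, and the nearest left out was 10.45 kb from Ctnnd2, in 1 list.

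The family was then read against all protein-coding genes. A BMI1 peak in 2 or more of 3 homeostasis libraries was present for 3 of the 7 genes (Ctnna1, Ctnna2 and Ctnna3), against 7.34% of all genes. An H2AK119ub peak was present for 4 of 7 (these and Ctnnd2), against 9.63%. Without H2AK119ub replicate 3 it was present for 2, with a peak then required in both remaining libraries. A peak in all 3 libraries was present for 3 of 7 with BMI1, against 4.45%, and for 2 of 7 with H2AK119ub, against 2.92%. Peaks in all 6 homeostasis lists were present for 2 of 7, Ctnna2 and Ctnna3, against 2.55%. Long genes had peaks more often: of the 98 genes of 800 kb or more, 90.8% had a BMI1 peak and 93.9% an H2AK119ub peak by the same criterion. Ctnna3, Ctnna2 and Ctnnd2 belong to those 98. Since homeostasis peak numbers were known when the genes were chosen, nothing is read from these shares.

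Ratios to the expected number place the 3 long genes among their peers. Of the 98 genes of 800 kb or more, 14 had a higher BMI1 ratio than Ctnna2, 17 a higher one than Ctnna3 and 89 a higher one than Ctnnd2. For H2AK119ub the numbers were 23, 21 and 88. The median ratio of the 98 genes was 1.06 for BMI1 and 1.04 for H2AK119ub, with upper quartiles of 1.57 and 1.56. Ctnna2 and Ctnna3 lay above these quartiles for both antibodies, and Ctnnd2 lay below the lower quartiles of 0.650 and 0.780. Against the same quartiles, that place was lost with H2AK119ub without replicate 2 for both Ctnna2 (1.07) and Ctnna3 (1.51). It was also lost for Ctnna3 without its tRNA peaks (1.39 for BMI1 and 1.43 for H2AK119ub). Over all protein-coding genes the median was 0 for both antibodies, since 87.6% had no BMI1 peak and 82.2% no H2AK119ub peak. That 0 is set by genes without a peak and is no level for long genes. The median over the 7 genes was 0.203 for BMI1 and 1.54 for H2AK119ub. The H2AK119ub median was the ratio of Ctnna1 and fell to 0.628 without replicate 1 and 1.07 without replicate 2, and the BMI1 median was 0 without replicate 2.

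**Figure D2:**
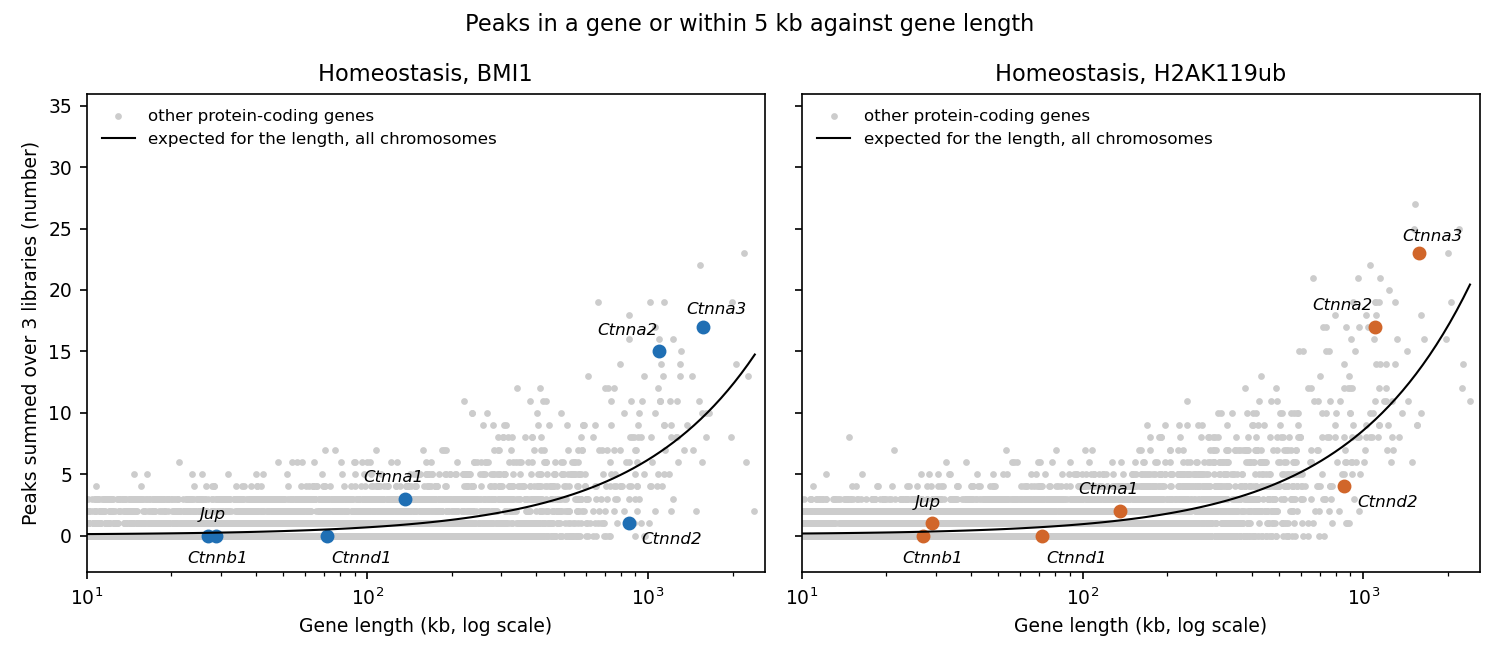
Peaks summed over 3 homeostasis libraries (number) against gene length (kb, log scale, from 10 kb) for BMI1 (left) and H2AK119ub (right). Grey points are protein-coding genes, coloured points the 7 catenin genes, and the line the number expected for the length over all chromosomes. Ctnna3 and Ctnna2 lie above the line and Ctnnd2 below it, each among grey points of like length.

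The position of peaks was then compared between lists. Peaks that overlapped by 1 bp or more were merged into regions, which gave 38 homeostasis regions in the 7 windows. Since 95.9% of all homeostasis peaks were 101 bp wide, the width of a region mostly reflects the offset of its peaks between lists. Of these, 23 came from a single list, and 14 of the 23 from H2AK119ub replicate 2, the longest list. The other 15 (39.5%) were in 2 or more lists, against 49.9% of the 17272 homeostasis regions elsewhere. Regions in 5 or 6 lists numbered 5 (13.2%), against 14.3% elsewhere. Of the 15 recurrent regions, 14 held both antibodies (93.3%), against 86.3% elsewhere. Each antibody had 3 homeostasis lists, so a region in more than 3 lists holds both antibodies by count alone. This applied to the 5 regions in 5 or 6 lists and to 3 others. Both shares were thus largely fixed by recurrence, and the difference between them was not tested.

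**Figure D3:**
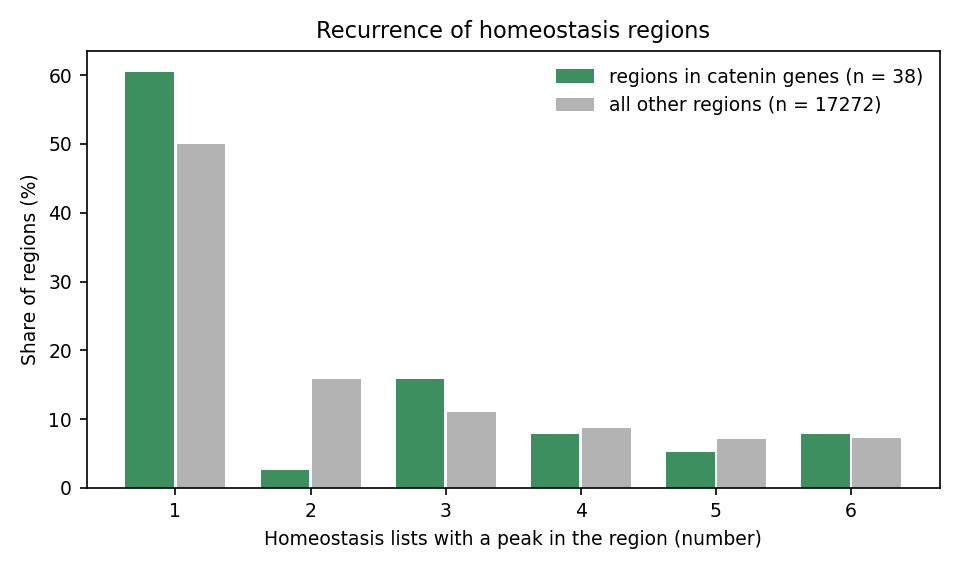
Share of homeostasis regions (%) by the number of homeostasis lists with a peak in the region, for the 38 regions in catenin genes (green) and the 17272 regions elsewhere (grey). Regions in 1 list are the largest class in both, and 3 of the 38 were in all 6 lists.

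In Ctnna3, 16 regions were found, of which 7 were in 3 or more lists and 9 in 1. The 2 regions in all 6 lists were at the outer ends: one on a tRNA gene before the start (chr10:63429460-63429570) and one 1507 kb into the gene (chr10:64936769-64936881, 113 bp). A region 944 kb into the gene (chr10:64374140-64374275, 136 bp) was in 5 lists, all but H2AK119ub replicate 1. Regions in 4 lists lay at 203 kb (chr10:63633259-63633365) and 903 kb (chr10:64332568-64332771), and regions in 3 lists at 1308 kb and 1476 kb. Of the 15 regions in the body, 3, 5 and 7 were in 3 equal parts of the gene counted from its 5′ end. The longest stretch without a region ran over 361 kb, from 209 to 570 kb. Of the 9 regions in a single list, 7 came from H2AK119ub replicate 2.

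The tRNA gene beside Ctnna3 is n-TStga3 (chr10:63429476-63429557, 82 bp), which ends 541 bp before the Ctnna3 start. The region on it is outside the gene body, and the annotation has no tRNA gene within the body of any of the 7 genes. All 6 homeostasis lists had a peak there, so 6 of the 83 homeostasis peaks (7.23%) were on a tRNA gene, against 1.52% of all 39615 homeostasis peaks. These 6 peaks are 1 site, and by region the tRNA share was 1 of 39 (2.56%) against 0.818% of all regions. Regions on tRNA genes recurred often over the genome: 59 of 143 (41.3%) were in all 6 homeostasis lists, against 7.18% of all homeostasis regions. Without these 6 peaks Ctnna3 held 1.39 times the expected BMI1 number and 1.43 times the expected H2AK119ub number. In H2AK119ub replicate 1 the tRNA peak was 1 of the 2 peaks of Ctnna3.

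In Ctnna2, 17 homeostasis regions were found, 6 of them in 2 or more lists and 11 in 1. The region in all 6 lists (chr6:77246103-77246229, 127 bp) lay 734 kb from the 5′ end of Ctnna2. It was also inside Lrrtm1 (chr6:77229210-77259915), which encodes a leucine-rich repeat protein of excitatory synapses and runs on the opposite strand. A region 693 kb from the 5′ end (chr6:77287032-77287153) was in 4 lists, and regions at 1035 kb, 673 kb and 523 kb were in 3. A region at 879 kb (chr6:77100809-77100990, 182 bp) was in H2AK119ub replicates 2 and 3 and in no BMI1 list, the sole recurrent catenin region with 1 antibody. Regions were spread over the gene, with 6, 5 and 6 in 3 equal parts, and none lay within 5 kb of the annotated start.

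Adjacent peaks that did not overlap were counted as separate regions. In Ctnna2 the BMI1 replicate 3 peak at chr6:76945082-76945182 was 12 bp from the region of BMI1 replicates 1 and 2 and H2AK119ub replicate 2 at chr6:76944966-76945070, and in Ctnna3 the regions at chr10:64906351-64906462 and chr10:64906464-64906564 were 2 bp apart. With peaks merged within 1 kb, the 38 regions became 34 and those in 2 or more lists became 16.

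Each alpha-catenin gene of the mouse holds a gene of the Lrrtm family of synaptic adhesion proteins within its body, and the 3 differed in peaks. Lrrtm1 in Ctnna2 held 1 peak in each of the 6 homeostasis lists. Lrrtm3 in Ctnna3 (chr10:63928497-64090255) held 1 peak, in H2AK119ub replicate 2. Lrrtm2 in Ctnna1 (chr18:35209003-35215024) held none, and it is 6.02 kb long. The sole recurrent region of Ctnnd2, in 3 lists (chr15:30679312-30679414), lay 507 kb into the gene within the long noncoding RNA gene Gm31841.

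**Figure D4:**
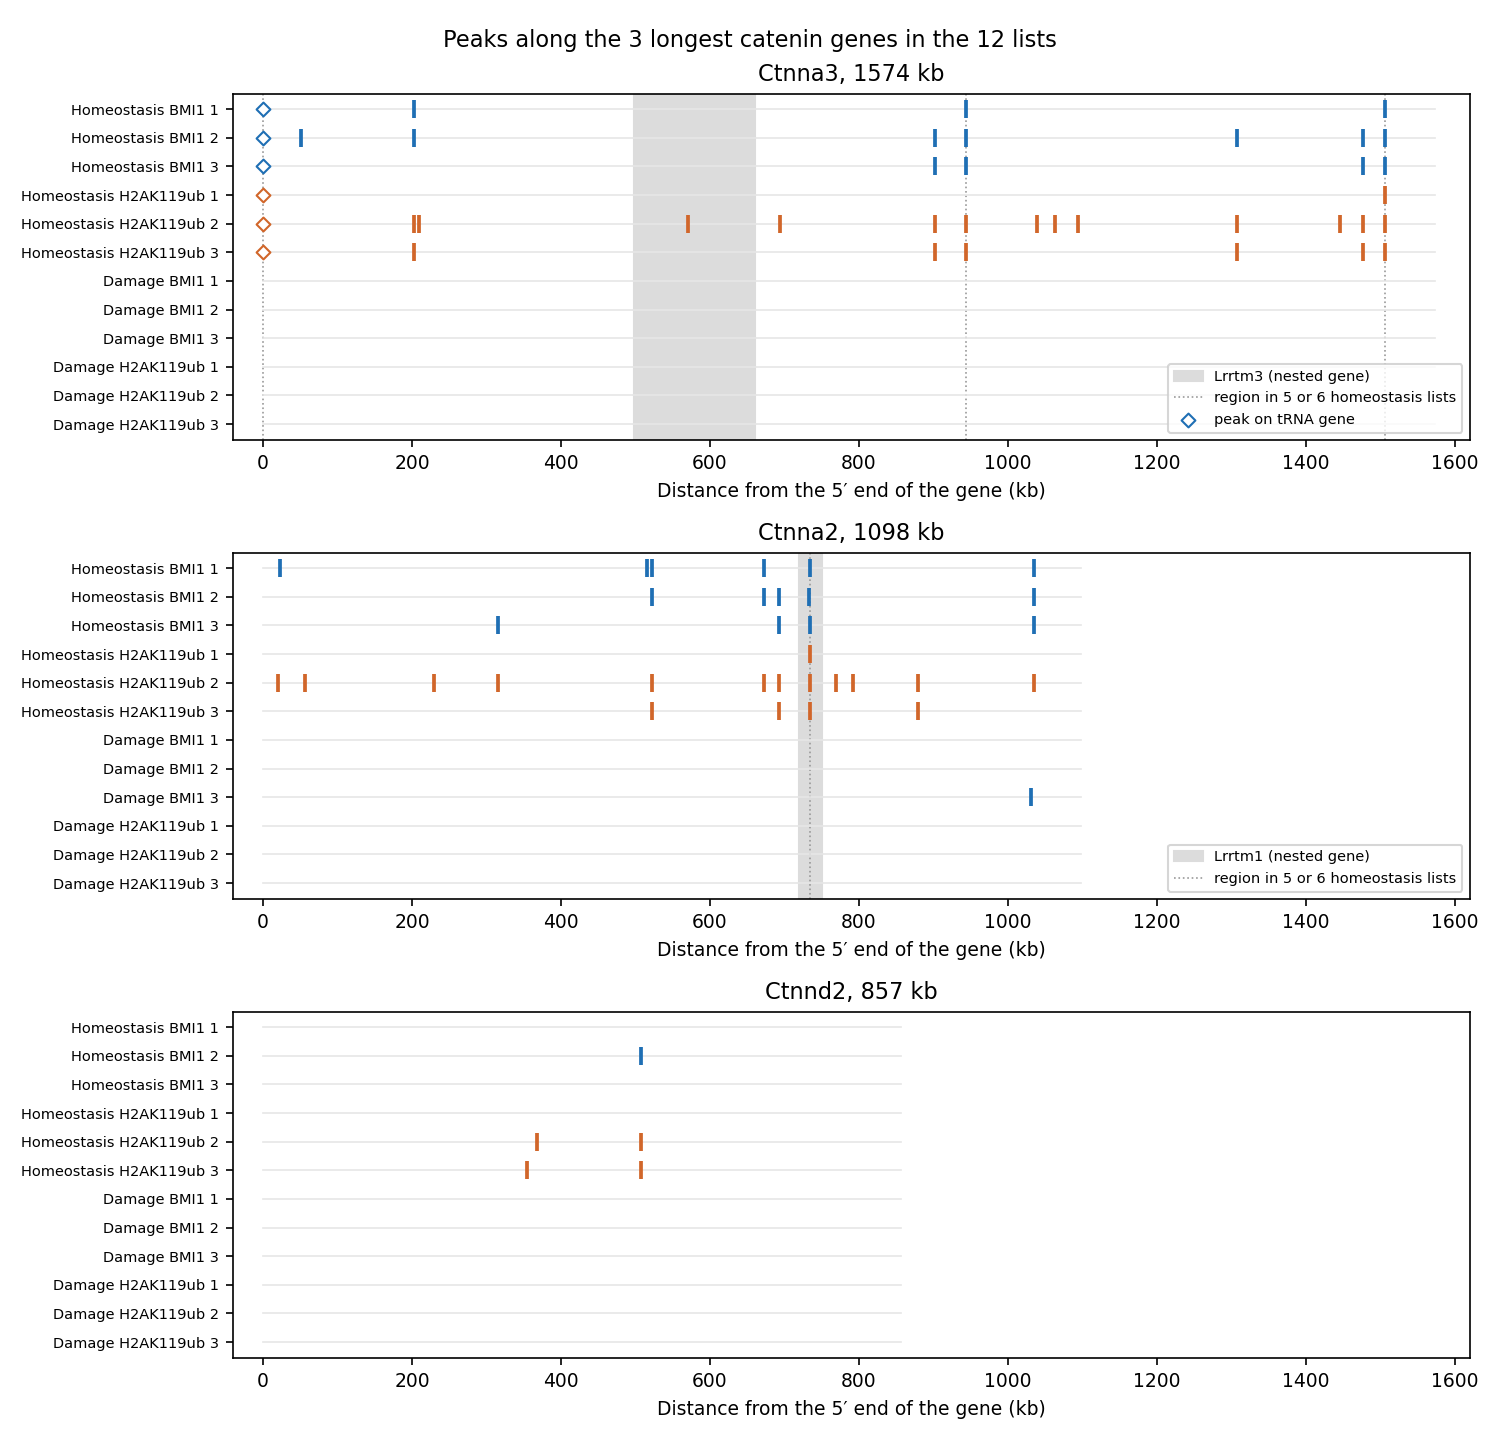
Peaks along Ctnna3, Ctnna2 and Ctnnd2 in each of the 12 lists, against distance from the 5′ end of the gene (kb). Ticks are peaks (BMI1 blue, H2AK119ub orange), open diamonds peaks on a tRNA gene, dotted lines regions in 5 or 6 homeostasis lists and grey bands the nested genes Lrrtm3 and Lrrtm1. The number after each group name is the replicate. The tRNA peak and the region at 1507 kb of Ctnna3 appear in all 6 homeostasis lists, and the single tick among Damage lists is in Ctnna2.

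Whether BMI1 and H2AK119ub differed in how much of a list fell in each gene was tested at homeostasis, on peaks per 1000 peaks of the list. With 3 libraries against 3, the two-sided exact permutation test has 20 arrangements and cannot give a p under 0.1. For Ctnna3 the share was 1.03 ± 0.218 (SD, n = 3) with BMI1 and 0.990 ± 0.0545 with H2AK119ub, a difference of 0.0403 (exact p = 0.8). Ctnna2 had 0.948 ± 0.267 and 0.640 ± 0.216, a difference of 0.307 (exact p = 0.2). Ctnnd2 had 0.0444 ± 0.0768 and 0.138 ± 0.133 (exact p = 0.4), and for Ctnna1 and Jup the exact p was 1. The antibodies overlapped in all 5 genes with a peak, and after adjustment over the 4222 genes with a homeostasis peak the exact p was 1 for each. All 3 BMI1 libraries lay above all 3 H2AK119ub libraries for 5.68% of those genes and below them for 0.403%. Only such separated genes reach the smallest exact p of 0.1, and they were too few for any gene to pass after adjustment. The adjusted p therefore says nothing about the catenin genes. The Ctnna2 difference was larger than either SD, but the libraries of both antibodies overlapped. Since no difference could pass the test, it does not show that the antibodies mark these genes alike.

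After paraquat the 7 genes held 1 peak, and short lists limit what can be read from it. The peak was in Ctnna2, in Damage BMI1 replicate 3 (chr6:76949039-76949139), 3.86 kb from the nearest homeostasis region and overlapping none. The Damage lists held 19 to 68 peaks, 217 in all, against 39615 at homeostasis, so for length 0.330 peaks were expected in the family over the 6 Damage lists. At the family's homeostasis share of 0.210% of all peaks, 217 peaks would hold 0.455. For Ctnna3, 0 of 217 Damage peaks allows a share of up to 1.38%, and its homeostasis share was 0.101%. A lower share of Damage peaks in catenin genes was therefore not detectable at this list length. Of all protein-coding genes, 0.283% had a peak in any Damage list. A peak in 2 or more Damage libraries of an antibody was present for 0 of the 7 genes, against 0.0137% of all genes with BMI1 and 0.00914% with H2AK119ub.

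Genes whose proteins work with catenins were listed by role, and the 3 nested Lrrtm genes were added for their position. All 62 symbols matched the annotation. Of these 62 genes 16 had a BMI1 peak in 2 or more of 3 homeostasis libraries and 16 an H2AK119ub peak, beside 7.34% and 9.63% of all genes. Both counts include Lrrtm1, whose region is also counted in Ctnna2. The median length of the 62 genes was 70.8 kb against 17.2 kb for all genes. None of the 62 had a peak in a Damage list, beside 0.283% of all genes, so this count does not set them apart.

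Among the 18 classical cadherins, the receptors that catenins bind, 9 met this criterion for BMI1 and 9 for H2AK119ub. Their median ratio to the expected number was 0.640 and 1.13, with a median length of 151 kb. The BMI1 median thus lay below the number expected for the length. Over all protein-coding genes, of median length 17.2 kb, the median was 0, since 80.7% had no homeostasis peak. That 0 is no level for genes of cadherin length. Of the cadherins 27.8% had no homeostasis peak, against 33.8% in the length class from 108.526 kb up. Cdh2, which encodes N-cadherin of the intercalated disc, held 2, 2 and 1 BMI1 peaks and 0, 2 and 2 H2AK119ub peaks. Cdh8 held 1 peak in each of the 6 lists, Cdh20 held 1.33 ± 0.577 BMI1 and 2.33 ± 1.15 H2AK119ub peaks (SD, n = 3), and Cdh6 and Cdh12 had BMI1 peaks in all 3 libraries. For Cdh8 the ratios were 1.10 (BMI1) and 0.826 (H2AK119ub), and for Cdh12 they were 1.06 and 1.51. The BMI1 counts of these 2 long genes were thus near what length alone gives. In the same order the ratios were 3.24 and 1.95 for Cdh2, 4.45 and 3.16 for Cdh6, and 2.85 and 3.41 for Cdh20. Cdh5, the cadherin of endothelial junctions, had 1 peak, in H2AK119ub replicate 2.

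Of 13 desmosome and intercalated disc genes, 3 (Dsp, Lmo7 and Pkp1) met the criterion for each antibody. Of the 13 genes 9 (69.2%) had no homeostasis peak, against 80.7% of all protein-coding genes. Dsp, which encodes desmoplakin, the plaque protein that anchors intermediate filaments and binds plakoglobin, held 1 peak in each of the 6 lists. Lmo7, which encodes a protein of adherens junctions, held 1 BMI1 peak per library and 1, 4 and 2 H2AK119ub peaks. The 9 genes, whose share without a peak does not set them apart, include Pkp2, Dsg2 and Dsc2, partners of plakoglobin in cardiac desmosomes, and Gja1, which encodes the gap junction protein connexin 43.

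The median ratio was 0 in this and the 2 following lists, as over all genes. Of 10 genes that link adherens junctions to actin, 1 met the criterion for BMI1 (Actn4) and 1 for H2AK119ub (Nectin2). Of 18 genes of beta-catenin turnover and Tcf/Lef transcription, 2 met it for each antibody and 14 (77.8%) had no homeostasis peak, near the 80.7% of all genes. Btrc, which encodes the ubiquitin ligase subunit that recognises phosphorylated beta-catenin, held 1 BMI1 peak per library and 0, 2 and 1 H2AK119ub peaks. Tcf7l2, a DNA-binding partner of beta-catenin, held 0, 1 and 0 BMI1 peaks and 1, 1 and 2 H2AK119ub peaks. Axin2, Gsk3b and Ctnnbip1 had none.

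Genes with the most similar counts were found by the distance between square roots of peaks per library over the 6 homeostasis lists. Nearest to Ctnna3 were Dcc (distance 0.548), Gpc6 (0.636), Macrod2 (0.697), Opcml (0.828) and Robo1 (0.847). Nearest to Ctnna2 were Lrp1b (0.497), Lrrc4c (0.713), Opcml (0.722), Celf2 (0.841) and Ptprd (0.850). All are long genes, from 857 kb for Celf2 to 2271 kb for Ptprd, and they share the libraries and list lengths with the catenin genes. The distance is on counts, and against expectation these genes differed. Over the 6 lists Gpc6 held 39 peaks against 15.7 expected and Lrp1b 33 against 29.2. Ptprd alone held fewer than expected, 27 against 30.6. Ctnna3 held 40 against 24.0 and Ctnna2 32 against 18.8. Dcc, a netrin receptor, held 4, 8, 4, 2, 12 and 5 peaks over BMI1 replicates 1 to 3 and H2AK119ub replicates 1 to 3, where Ctnna3 held 4, 8, 5, 2, 14 and 7.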

How the data were processed

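The data were 12 deposited peak lists, 1 per ChIP library, with 19 to 13487 peaks. Reads were processed with Bowtie2 and HOMER 4.8 on GRCm38, per the submitters' processing notes. The sources used here do not give the peak-calling settings. The deposited score is 1 for every peak, per the values of the authors' files, so it ranks nothing and no stricter score was tried. Read depth is unknown. The 2 Input libraries were not analysed here.

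Genes and start windows came from RefSeq tables of GRCm38.p6, which give no exons or introns. Expected numbers were calculated per library and chromosome over the span of annotated genes and peaks, without random placement. The 143 peaks off the assembled chromosomes were not assigned to genes. Tests were exact permutation tests over libraries, adjusted by Benjamini-Hochberg over all genes with a homeostasis peak instead of over the 7 genes as planned. The genes, lists and tests were chosen with earlier results of these data known. Partners were named when all 3 homeostasis libraries of an antibody had a peak, and the nested Lrrtm genes always. Cdh5, Pkp1, Actn4, Nectin2 and the partners named for lacking peaks were named after their values were seen. Likeness used the 5 nearest genes. Alternatives were the window, the peak centre, the tRNA peaks and their distance, 3 of 3 libraries, raw counts, peaks found again in the group, the expectation, the merging distance, the replicate block and each library left out. No 2 lists shared over 4.65% identical peaks. Python 3.11.15, numpy 2.4.6, pandas 2.3.3, scipy 1.17.1 and matplotlib 3.10.9 were used, and the procedures were tested on simulated data.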

Additional observations from a re-analysis of the deposited data

How the results depend on the processing

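Of 278 recomputed values of 31 results, 262 stayed within a set limit. Mean numbers and ratios had to move by no more than the SD between libraries. Differences, none of which could pass the test, had not to change sign. Numbers of genes and regions had to stay within 1.5 times, and the tRNA share within its 95% binomial interval over peaks. Part of this was fixed in advance: leaving out 1 of 3 libraries cannot move a mean number by more than its SD, and the replicate block leaves a difference unchanged. The BMI1 values of Jup were 0 throughout, and leaving out tRNA peaks could change the peak number of Ctnna3 alone. Where the SD is wide, the 262 include large moves: the H2AK119ub ratio of Ctnna1 was 0.849 and that of Jup 0 without replicate 1. For Ctnna3 the BMI1 ratio to the expected number was 2.1 with only peaks found in another library of the group, which also moved the mean BMI1 number of Ctnna2 from 5.0 to 3 and the BMI1 ratio of Ctnna1 from 3.07 to 4.21. The H2AK119ub ratio of Ctnna3 was 1.44 in the gene body only, 1.45 without tRNA peaks in lists and expectation, and 1.89 with the expectation from protein-coding gene windows, an alternative chosen after the data were seen. With any library left out, the Ctnna3 ratios were 1.59 to 1.87 (BMI1) and 1.51 to 1.72 (H2AK119ub), those of Ctnna2 1.58 to 2.35 and 1.07 to 1.85, and those of Ctnnd2 0 to 0.29 and 0.42 to 0.724. The genes with a recurrent H2AK119ub peak numbered 2 with 3 of 3 libraries required. With a library left out and a peak required in both others, a stricter criterion, they numbered 2 to 3, against 3 to 3 for BMI1. Recurrent regions numbered 14 to 15, and regions in all 24 to 37, the lowest without H2AK119ub replicate 2. The Damage count was 0 to 1, and 0 without Damage BMI1 replicate 3.

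The difference between antibodies (BMI1 minus H2AK119ub) changed sign with raw counts, to -2 peaks for Ctnna3, -0.667 for Ctnna2 and 0.333 for Ctnna1, since raw counts are not divided by list length. It ranged from -0.0587 to 0.157 per 1000 peaks for Ctnna3 and from -0.124 to 0.126 for Ctnna1 with a library left out, negative for Ctnna3 without BMI1 replicate 3. For Ctnna1 it was 0.0114 without BMI1 replicate 2 and 0.126 without H2AK119ub replicate 1. For Ctnna2 it ranged from 0.183 to 0.448. With the replicate number as a block, the exact p was 0.75 for Ctnna3 and 0.5 for Ctnna2, at unchanged differences of 0.0403 and 0.307. Deviations of same-numbered homeostasis libraries over genes correlated at 0.0418, 0.298 and -0.130, and those of differently numbered ones at -0.308 to 0.224. These few values do not settle whether the numbers pair the samples. Without read depth, list length limits every count here.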
